A study of Rattus norvegicus with 18 samples.

Results

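DNA replication and S phase genes were followed in 18 bulk 3′ mRNA-seq libraries of rat T-MBP cells. The list was drawn up by function, with earlier results of these data known. It holds 45 genes for the replicative helicase, origin licensing, the polymerases and their clamp, Okazaki fragment joining, and further functions. These are nucleotide and histone supply, chromatin (*Dek*), the nuclear envelope (*Lmnb1*) and entry into S phase. By gene symbol, 44 of the 45 were found among the 32882 genes of each table, and the remaining one, *E2f1*, was not analysed here.

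Cells copy their DNA once per division. In G1 the origin recognition complex, *Cdc6* and *Cdt1* load the MCM helicase onto origins, and in S phase kinases recruit *Cdc45* and GINS so that the helicase unwinds DNA ahead of the polymerases. Many of these genes are transcribed together by E2F factors when cyclin E and its kinase release them from the retinoblastoma proteins, and activated T cells switch them on as they begin to divide.

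T-MBP cells are CD4+ T cells of Lewis rats that recognize myelin basic protein (MBP) and cause experimental autoimmune encephalomyelitis when transferred into rats. All groups had been restimulated with MBP and irradiated thymocytes before transfer and were sorted on day 3 after it. Cells were edited by electroporation of Cas9 protein with sgRNA. The control cells had received a non-targeting sgRNA (NT), are given as WT in the labels and were sorted as BFP+, whereas the *Ets1*-KO or *Grk2*-KO cells were sorted as GFP+, so that knockout and fluorophore cannot be told apart. The 6 groups of 3 libraries were NT and *Ets1*-KO cells from the spinal cord parenchyma, NT and *Ets1*-KO cells from the spleen, and NT and *Grk2*-KO cells from the spleen with NT libraries of their own. Cells from the parenchyma were isolated on a Percoll gradient and those from the spleen with a CD4 enrichment kit. Replicates carried numbers, and same-numbered KO and NT libraries were treated as pairs because the study transferred KO and control cells together. The labels do not state from which animal each library came, so p-values refer to libraries and not to animals. Standard errors (SE) and p-values rest on the spread between these libraries, shared by the fit among genes of like expression level. An SE is therefore not the spread of that gene alone.

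Each library held 898092 to 2248258 reads assigned to genes. In the spleen *Ets1* experiment the KO libraries were deeper, with 1909862 to 2248258 reads against 898092 to 1213485 in the NT libraries. All 10 T cell markers were detected in every group, and their summed normalized count was 4099 to 4434 in the spleen NT and 4229 to 4543 in the spleen *Ets1*-KO libraries. The summed count of 8 B cell markers was at most 13.1 in any library, and *Pax5*, *Blk* and *Cd22* were at 0 throughout. The 6 erythroid markers summed to 30.6 to 62.4 in the spleen NT and 40.3 to 48.6 in the spleen *Ets1*-KO libraries, and to at most 4.14 elsewhere. Of the edited genes, *Grk2* had normalized counts of 166, 166 and 142 in the NT and 53.3, 64.2 and 87.3 in the KO libraries, which did not overlap. *Ets1* transcripts overlapped between the groups, with 1965, 2038 and 2227 in the NT and 1868, 1763 and 2369.8 in the KO libraries of the spleen and 2326, 2573 and 2302 in the NT and 2682, 2628 and 2342 in the KO libraries of the parenchyma. Reads from 3′ ends do not show an edit elsewhere in the transcript, so the *Ets1* labels were not checked by these levels.

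The promoters are shown first because 1 sequence feature that the list did not use recurred among them. For 39 of the 44 members, RefSeq (GRCr8) gave a promoter window of 300 bases, from 250 bases before the start site to 50 after it; *Mcm4*, *Rrm2*, *Cdc6*, *Orc1* and *Ccne2* had none. *Dut* had more than 1 window, and a member was counted where any of its windows matched, while all genes were counted by window. A run of E2F letters, searched as TTTCCCGC, TTTGGCGC, TTTCGCGC or TTTGCCGC on both strands, was present in 16 of the 39 members (41.0%) and in 716 of 33365 windows of all genes (2.15%). CCAAT, searched on both strands, was in 22 of the 39 (56.4%) against 37.5% of all windows, and the CHR element TTTGAA, known from genes of mitosis and searched on both strands, was in 7 of the 39 (17.9%) against 18.3%. A match is a description of the letters and not evidence of binding.

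The windows chosen are those of 5 members that fell in *Ets1*-KO cells of the spleen and hold an E2F match (*Mcm2*, *Mcm3*, *Mcm5*, *Mcm7* and *Dnajc9*), 1 that fell there and holds none (*Tk1*), and *Lig1*, which fell in *Ets1*-KO cells of the parenchyma. Capitals mark the E2F matches, which overlap head to head in *Mcm2* and in the upstream match of *Mcm5*.
Mcm2, chr4:122918045-122918344, minus strand: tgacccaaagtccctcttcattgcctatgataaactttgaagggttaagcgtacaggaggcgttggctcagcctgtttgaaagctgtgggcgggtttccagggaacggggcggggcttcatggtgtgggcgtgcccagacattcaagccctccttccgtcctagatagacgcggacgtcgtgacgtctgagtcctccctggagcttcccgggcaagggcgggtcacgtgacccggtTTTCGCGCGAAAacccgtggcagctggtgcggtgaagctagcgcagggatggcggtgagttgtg
Mcm3, chr9:30733697-30733996, minus strand: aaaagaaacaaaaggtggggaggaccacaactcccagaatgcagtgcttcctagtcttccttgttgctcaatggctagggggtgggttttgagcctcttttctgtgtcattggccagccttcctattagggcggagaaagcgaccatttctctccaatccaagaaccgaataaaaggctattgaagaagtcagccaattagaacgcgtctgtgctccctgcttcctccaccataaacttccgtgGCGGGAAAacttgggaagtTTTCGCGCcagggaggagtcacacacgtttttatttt
Mcm5, chr19:13488563-13488862, plus strand: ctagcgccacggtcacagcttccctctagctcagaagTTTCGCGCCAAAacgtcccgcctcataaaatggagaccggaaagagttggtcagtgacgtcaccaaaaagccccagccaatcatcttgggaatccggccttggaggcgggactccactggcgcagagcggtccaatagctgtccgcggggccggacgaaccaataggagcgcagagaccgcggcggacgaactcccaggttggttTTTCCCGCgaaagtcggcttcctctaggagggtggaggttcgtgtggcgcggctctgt
Mcm7, chr12:22163129-22163428, minus strand: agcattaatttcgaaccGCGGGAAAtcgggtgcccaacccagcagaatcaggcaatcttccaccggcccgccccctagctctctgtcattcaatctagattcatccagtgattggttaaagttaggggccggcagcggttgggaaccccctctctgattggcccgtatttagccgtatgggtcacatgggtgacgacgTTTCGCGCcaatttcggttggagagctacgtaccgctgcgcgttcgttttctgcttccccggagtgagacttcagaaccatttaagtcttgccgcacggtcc
Dnajc9, chr15:3972779-3973078, plus strand: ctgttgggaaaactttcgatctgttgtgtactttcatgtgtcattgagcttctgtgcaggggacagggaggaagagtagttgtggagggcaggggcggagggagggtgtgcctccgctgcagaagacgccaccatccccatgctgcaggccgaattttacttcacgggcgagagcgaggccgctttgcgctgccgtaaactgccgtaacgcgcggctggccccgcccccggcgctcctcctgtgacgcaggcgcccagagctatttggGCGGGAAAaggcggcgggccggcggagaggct
Tk1, chr10:103544728-103545027, minus strand: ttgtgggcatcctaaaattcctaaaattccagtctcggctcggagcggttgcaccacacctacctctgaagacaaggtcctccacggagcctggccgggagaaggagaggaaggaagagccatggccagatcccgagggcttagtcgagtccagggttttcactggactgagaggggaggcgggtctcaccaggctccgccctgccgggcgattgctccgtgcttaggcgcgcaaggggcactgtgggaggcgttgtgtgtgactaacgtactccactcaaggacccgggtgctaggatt
Lig1, chr1:83242920-83243219, plus strand: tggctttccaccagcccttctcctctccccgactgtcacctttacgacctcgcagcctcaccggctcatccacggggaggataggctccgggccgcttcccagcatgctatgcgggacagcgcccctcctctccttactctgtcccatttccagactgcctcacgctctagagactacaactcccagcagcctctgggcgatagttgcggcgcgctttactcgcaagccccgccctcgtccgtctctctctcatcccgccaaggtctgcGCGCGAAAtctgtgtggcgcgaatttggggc

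In *Mcm2*, *Mcm3*, *Dnajc9* and *Lig1* all matches lay within 20 bases of the annotated start site. Of the 10 members that fell in the spleen *Ets1* comparison and had a window, 6 held an E2F match, against 16 of all 39 members with a window. *Tk1*, *Rrm1*, *Chaf1a* and *Lmnb1* fell and held none. Whether a match goes with a fall was not tested.

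The first comparison asked how loss of *Ets1*, which encodes a transcription factor of lymphocytes, was accompanied by changes in these genes among T-MBP cells in the spleen. Of the 44 members, 41 passed the minimum of a mean normalized count of 10 over the 6 libraries. Each of the 41 had a lower mean in *Ets1*-KO cells (43 of 44 without the minimum), with a median log2 fold change of -0.50 (range -1.04 to -0.03), whereas the median of all 6979 genes tested was 0.00. Of the 41, 12 fell at an adjusted p below 0.05 and none rose, while 1.20% of all genes fell and 1.02% rose. All 12 calls were lost without replicate 1. In 21 of the 41 every KO library lay below every NT library, against 8.88% of all genes. Folds are KO minus NT on the log2(normalized count + 1) scale with SE, tested with limma with the replicate number as a block and Benjamini-Hochberg adjustment over all genes. Library values are normalized counts in the order of replicates 1, 2 and 3. In bulk libraries, fewer cells in S phase and less RNA per cell cannot be told apart.

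**Figure D1:**
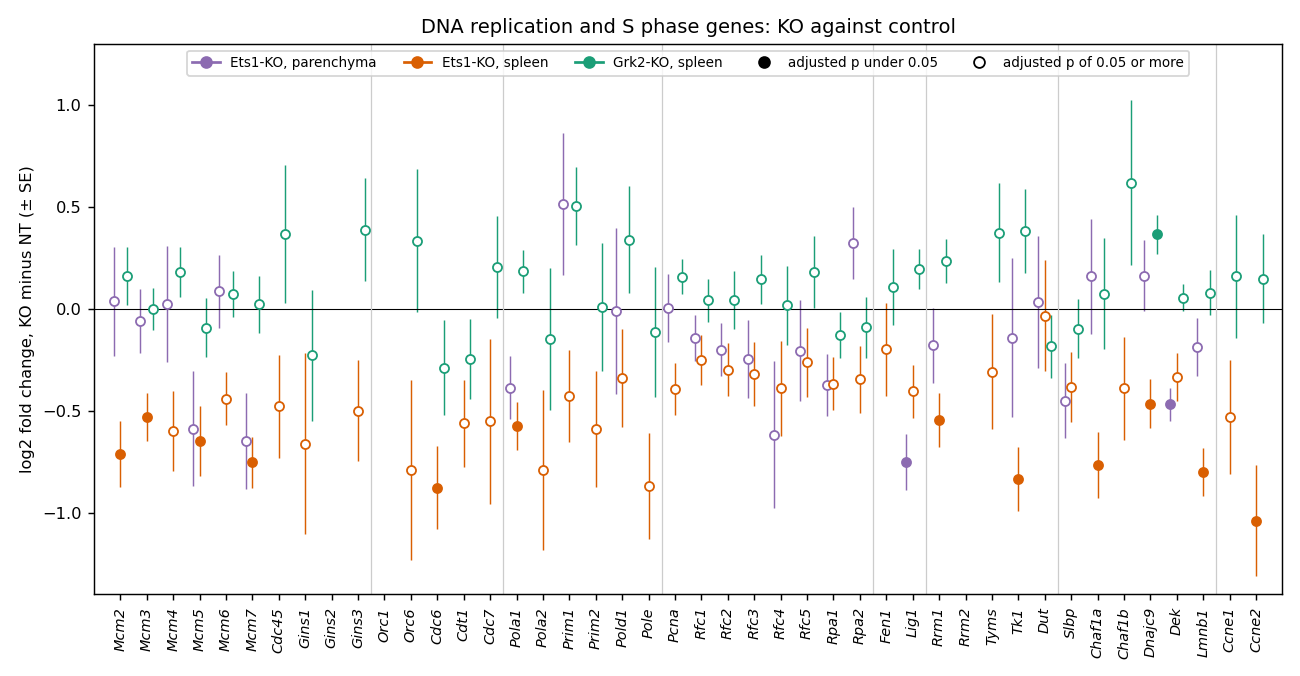
Log2 fold change (KO minus NT, ± SE) of each member tested in the parenchyma *Ets1*, spleen *Ets1* and spleen *Grk2* comparisons, 3 libraries per group, ordered by role; filled points have an adjusted p below 0.05. All 41 spleen *Ets1* values lie below 0, from -0.03 to -1.04, and 31 of the 41 spleen *Grk2* values lie above 0.

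The MCM genes encode the ring of 6 subunits that forms the core of the replicative helicase. *Mcm2* had 128, 103 and 114 in the NT and 79.4, 65.7 and 64.9 in the KO libraries. *Mcm3* had 416, 354 and 368 in the NT and 261, 264 and 262 in the KO libraries. Both were separated between groups, with the lowest NT library above the highest KO library, and both fell (-0.71 ± 0.16, adjusted p = 0.0168 and -0.53 ± 0.12, adjusted p = 0.0155). *Mcm5* had 154, 130.2 and 155 in the NT and 114, 109 and 64.3 in the KO libraries (-0.65 ± 0.17, adjusted p = 0.0444). In *Mcm5* the groups were also apart, with KO replicate 3 the lowest. *Mcm7* had 315, 266 and 273 in the NT and 163, 166 and 175 in the KO libraries and fell to 59.3% of the control level (-0.75 ± 0.13, adjusted p = 0.00259). *Mcm6* had 229, 195 and 180.2 in the NT and 152, 152 and 139 in the KO libraries and was likewise apart, but its difference did not pass the test (-0.44 ± 0.13, adjusted p = 0.082). For *Mcm4*, whose NT replicate 3 lay among the KO values, the fold was -0.60 ± 0.19, adjusted p = 0.126.

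*Cdc45* and the GINS proteins join the MCM ring to make the active helicase. *Cdc45* had 33.9, 38.7 and 45.4 in the NT and 32.2, 26.05 and 25.6 in the KO libraries, without overlap, yet the test was not passed (-0.48 ± 0.25, adjusted p = 0.404). *Gins1* and *Gins3* had folds of -0.66 ± 0.44 and -0.50 ± 0.25 with adjusted p of 0.538 and 0.371, and *Gins2* was under the minimum. Of the 9 helicase genes tested, 4 fell, and 7 had all KO libraries below all NT libraries.

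Among the genes that license and fire origins, *Cdc6*, which helps load the MCM ring, had 78.8, 73.1 and 59.5 in the NT and 41.1, 34.1 and 38.1 in the KO libraries. The KO values were close together and all below the NT values, and *Cdc6* fell to 54.4% of control (-0.88 ± 0.20, adjusted p = 0.0207). *Cdt1*, the partner of *Cdc6* in loading, and *Orc6*, a subunit of the origin recognition complex, had lower means but did not pass (-0.56 ± 0.22, adjusted p = 0.218; -0.79 ± 0.44, adjusted p = 0.435). The same held for *Cdc7*, the kinase that activates loaded helicases (-0.55 ± 0.40, adjusted p = 0.585), and *Orc1* was under the minimum.

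Of the polymerase genes, *Pola1* encodes the catalytic subunit of the polymerase α–primase that starts each new strand. It had 514, 438 and 621 in the NT and 393, 298 and 360.3 in the KO libraries, without overlap, and fell to 67.2% of control (-0.57 ± 0.12, adjusted p = 0.00847). Its partners *Pola2*, *Prim1* and *Prim2* had folds between -0.79 and -0.43, and the catalytic subunits of polymerases δ and ε, *Pold1* and *Pole*, had -0.34 ± 0.24 and -0.87 ± 0.26; none of these 5 passed.

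The clamp, clamp loader and RPA genes had a median of -0.33, and none of the 8 was called. *Pcna*, the sliding clamp that holds polymerases on DNA, had 229, 229 and 189.6 in the NT and 164, 168 and 159 in the KO libraries. These groups did not overlap, although the difference did not pass the test (-0.39 ± 0.13, adjusted p = 0.133). *Rfc1* to *Rfc5*, which load the clamp, and *Rpa1* and *Rpa2*, which coat single-stranded DNA, had folds from -0.25 to -0.39. For Okazaki fragments, the flap nuclease gene *Fen1* had -0.20 ± 0.23 and the ligase gene *Lig1* had -0.40 ± 0.13, adjusted p = 0.111. *Lig1* libraries overlapped (1238, 1105 and 1719 in the NT and 1235, 861 and 953 in the KO libraries).

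Nucleotide supply was represented by *Tk1*, thymidine kinase of S phase, with 141, 138 and 193 in the NT and 78.7, 97.4 and 84.9 in the KO libraries. It fell to 56.1% of control (-0.83 ± 0.16, adjusted p = 0.00423). *Rrm1*, the large subunit of ribonucleotide reductase, had 246, 173 and 226 in the NT and 160.2, 135 and 143 in the KO libraries and fell as well (-0.54 ± 0.13, adjusted p = 0.029). In both genes the groups were apart. The thymidylate synthase gene *Tyms* had 27.3, 32.3 and 25.1 in the NT and 28.1, 22.3 and 18.1 in the KO libraries, which overlapped (-0.31 ± 0.28, adjusted p = 0.681). *Dut*, which removes dUTP, had -0.03 ± 0.27, the smallest difference among the members tested. *Rrm2*, the small subunit of the reductase, had at most 2 reads per library, with 0, 0 and 0 in the NT and 1.37, 1.24 and 1.25 in the KO libraries, and no fold was computed.

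In the group for histone supply and chromatin, 3 of 6 genes fell. *Lmnb1*, which encodes lamin B1 of the nuclear envelope, had 442, 356 and 509 in the NT and 242, 234 and 267 in the KO libraries (-0.80 ± 0.12, adjusted p = 0.000633). The highest KO library lay below the lowest NT library. *Chaf1a*, the large subunit of the chromatin assembly factor that places histones behind the fork, had 252, 141 and 309 in the NT and 110.2, 131 and 153 in the KO libraries. Its NT replicate 2 lay within the KO range, so the groups overlapped, while the paired test gave -0.77 ± 0.16, adjusted p = 0.0108. *Dnajc9*, a histone chaperone, had 311, 303 and 312 in the NT and 251, 202 and 221 in the KO libraries and fell to 72.5% (-0.46 ± 0.12, adjusted p = 0.0417). *Chaf1b*, *Dek* and *Slbp* had folds of -0.39, -0.33 and -0.38 that did not pass.

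Of the cyclins E, which drive entry into S phase, *Ccne2* had 42.7, 31.2 and 42.3 in the NT and 23.97, 12.4 and 19.98 in the KO libraries and showed the greatest fall of all members, to 48.7% of control (-1.04 ± 0.27, adjusted p = 0.0428). The groups were apart. *Ccne1* had 39.4, 35.5 and 31.3 in the NT and 17.1, 37.2 and 21.9 in the KO libraries, where KO replicate 2 lay among the NT values (-0.53 ± 0.28, adjusted p = 0.402).

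**Figure D2:**
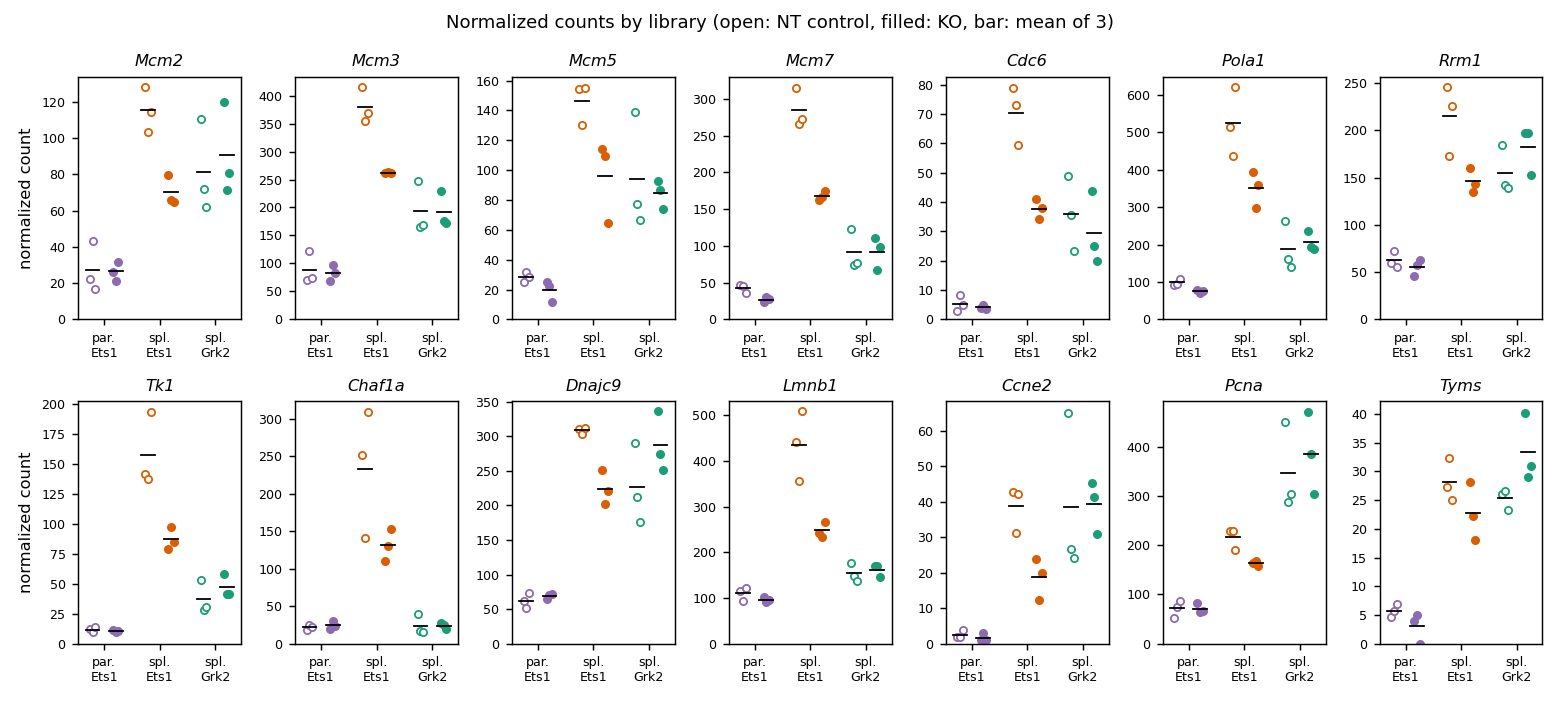
Normalized counts (y axis, starting at 0) of 14 members in each library of the parenchyma *Ets1*, spleen *Ets1* and spleen *Grk2* experiments; open points are NT, filled points KO and bars the means of 3. In the spleen *Ets1* experiment the KO points of all genes shown except *Chaf1a* and *Tyms* lie below the NT points, and the parenchyma points, from a table scaled separately, lie below all spleen *Ets1* points in each panel.

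The direction was seen in each pair: 37, 39 and 38 of the 41 members were lower in the KO library of replicates 1, 2 and 3, with medians of -0.48, -0.46 and -0.49. Since the KO libraries were deeper, reads were thinned to the lowest library total, after which 41 of 41 were lower, the median was -0.53 and 10 were called. The number of calls rested on replicate 1: without it no member was called, and 3 of all genes instead of 155, although 41 of 41 members remained lower with a median of -0.53. Calls numbered 13 with edgeR, 5 with DESeq2, 7 without the replicate block and 0 when the limma variance was fitted without a trend over expression, where no gene of the table was called.

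The second comparison addressed *Grk2*, a kinase that acts on G-protein-coupled receptors, in the spleen. Here 41 members were tested, 31 had a higher and 10 a lower mean in *Grk2*-KO cells, and the median log2 fold change was 0.11 (range -0.29 to 0.62) against 0.02 over 6985 genes. This median was 0.19, 0.042 and 0.056 without replicates 1, 2 and 3, with 32, 24 and 26 of the 41 higher, and 0.048 with edgeR. A single member rose and none fell, while 0.931% of all genes rose and 0.630% fell. KO libraries lay above all NT libraries in 2 of the 41 (*Gins3* and *Tyms*) and in 7.59% of all genes.

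The member that rose was *Dnajc9*, with 290.5, 212 and 176 in the NT and 336, 274 and 252 in the KO libraries (0.37 ± 0.09, adjusted p = 0.0167). Its groups overlapped, and each KO library exceeded the NT library of its number. The call was lost without the block, without replicate 1, 2 or 3 and with DESeq2, and was kept with edgeR. Of the genes that fell in *Ets1*-KO cells, *Mcm2* had 111, 72.1 and 61.7 in the NT and 119.6, 71.5 and 80.9 in the KO libraries. *Mcm3* had 247, 165 and 169 in the NT and 229, 176 and 172 in the KO libraries, and *Mcm5* had 139, 77.6 and 66.8 in the NT and 92.6, 86.98 and 73.7 in the KO libraries. In all of them NT replicate 1 was the highest NT library and the groups overlapped, with folds of 0.16, 0.00 and -0.09. *Mcm6* had 199, 121 and 152 in the NT and 184, 165 and 141 in the KO libraries. *Cdc45* had 14.1, 9.98 and 11.1 in the NT and 20.96, 12.4 and 13.6 in the KO libraries, and *Cdc6* had 48.8, 35.5 and 23.3 in the NT and 43.7, 24.9 and 20.01 in the KO libraries. These overlapped too, with folds of 0.07, 0.37 and -0.29.

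*Pcna* had 449.8, 288 and 304 in the NT and 471, 384 and 303 in the KO libraries. *Tk1* had 53.1, 27.7 and 30.4 in the NT and 58.5, 41.4 and 41.8 in the KO libraries, and *Lmnb1* had 177, 149 and 137 in the NT and 170.3, 169.8 and 146 in the KO libraries. The folds of the clamp, the kinase and the lamin were 0.16 ± 0.09, 0.38 ± 0.21 and 0.08 ± 0.11, and none passed. *Tyms* had 26.01, 26.6 and 23.3 in the NT and 40.2, 28.99 and 30.9 in the KO libraries, apart but not passing (0.37 ± 0.24, adjusted p = 0.624). *Rrm2* was under the minimum, with 11.9, 3.33 and 5.06 in the NT and 1.75, 11.4 and 7.28 in the KO libraries. *Ccne1* had 31.4, 12.2 and 14.2 in the NT and 15.7, 22.8 and 21.8 in the KO libraries, and *Ccne2* had 65.04, 26.6 and 24.3 in the NT and 45.4, 41.4 and 30.9 in the KO libraries. Both cyclin genes overlapped, with folds of 0.16 and 0.15. By pair the member medians were -0.05, 0.22 and 0.14, so that replicate 1 did not share the direction of the others.

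Whether the *Ets1* and *Grk2* effects differed in the spleen was tested on the KO-to-NT log2 ratios of the 3 pairs in each experiment, which have separate NT libraries. Of the 41 members, 40 had a lower ratio in the *Ets1* experiment, with a median difference of -0.64 against -0.01 over 6490 genes, and the exception was *Dut*. The difference passed the test in 7 members, all lower for *Ets1*, against 1.22% of all genes.

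Of these 7, *Tk1* differed most (-1.22 ± 0.25, adjusted p = 0.00364), followed by *Lmnb1* (-0.88 ± 0.16, adjusted p = 0.00116) and *Mcm2* (-0.87 ± 0.22, adjusted p = 0.022). *Dnajc9* fell with *Ets1*-KO and rose with *Grk2*-KO (-0.83 ± 0.15, adjusted p = 0.0015). The remaining ones were *Rrm1* (-0.78 ± 0.17, adjusted p = 0.00848), *Mcm7* (-0.78 ± 0.19, adjusted p = 0.0191) and *Pola1* (-0.76 ± 0.16, adjusted p = 0.00615). Without the replicate block 1 member was called, and without replicate 1, 2 or 3 the number was 3, 1 and 2.

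**Figure D3:**
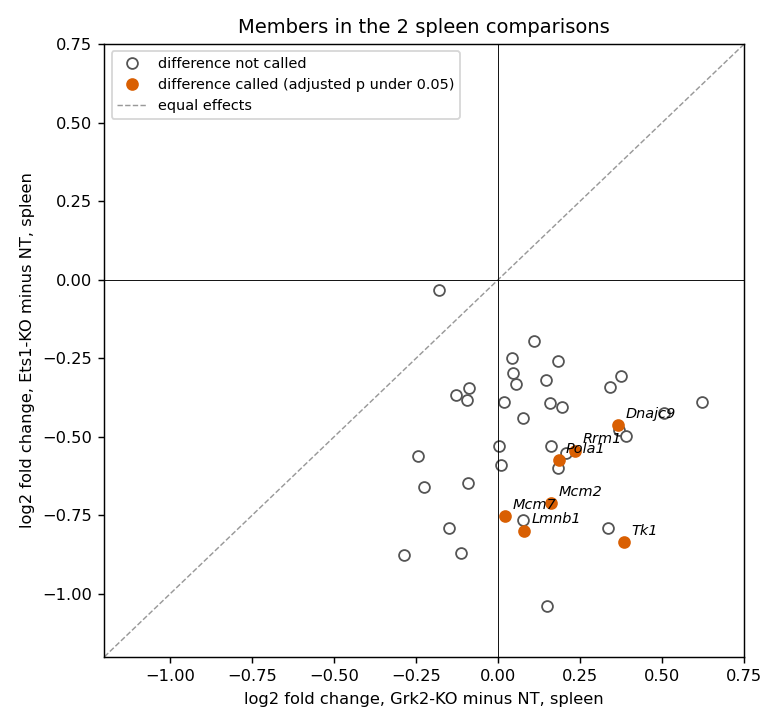
Log2 fold change of the 41 members in the spleen with *Ets1*-KO (y axis) against *Grk2*-KO (x axis); filled, named points are the 7 members whose difference had an adjusted p below 0.05, and the dashed line marks equal effects. All members but *Dut* lie below the line.

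In the spinal cord parenchyma the same comparison of *Ets1*-KO with NT cells covered fewer members, because 18 of the 44 were under the minimum: *Cdc45*, *Gins1* to *Gins3*, *Orc1*, *Orc6*, *Cdc6*, *Cdt1*, *Cdc7*, *Pola2*, *Prim2*, *Pole*, *Fen1*, *Rrm2*, *Tyms*, *Chaf1b*, *Ccne1* and *Ccne2*. Of the 26 tested, 17 had a lower and 9 a higher mean in KO cells, with a median of -0.16 (range -0.75 to 0.52) against -0.03 over 7002 genes. There 2 members fell and none rose, while 2.96% of all genes fell and 2.27% rose. KO libraries lay below all NT libraries in 6 of the 26 (10.5% of all genes) and above them in 2 (7.87%). The former were *Lig1*, *Dek*, *Mcm7*, *Pola1*, *Rpa1* and *Slbp*, and the latter *Prim1* and *Rpa2*.

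*Lig1*, the ligase that seals Okazaki fragments, had 149, 171 and 129 in the NT and 78.9, 113 and 75.9 in the KO libraries and fell to 59.4% of control (-0.75 ± 0.14, adjusted p = 6.18e-06). *Dek*, a chromatin protein that binds histones, had 908, 962 and 891 in the NT and 687, 677 and 632 in the KO libraries and fell to 72.3% (-0.47 ± 0.08, adjusted p = 7.51e-07). In both genes the groups were apart. Both were called in all alternatives run but the limma fit without a trend, where 3 genes of the table were called. In that fit the adjusted p was 0.217 for *Lig1* and 0.305 for *Dek*. The summed normalized count of 12 myeloid markers, of which *Adgre1* was at 0, was 29.2 to 57.0 in the NT and 50.5 to 69.8 in the KO libraries of the parenchyma, and that of 8 markers of central nervous system cells, with *Aqp4* and *Cldn5* at 0, was 70.1 to 93.1 and 48.7 to 84.9. Their part in these results was not tested.

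None of the 6 helicase genes tested passed in the parenchyma, and 3 had a lower and 3 a higher mean. *Mcm2* had 22.4, 43.3 and 16.7 in the NT and 26.3, 21.2 and 31.7 in the KO libraries. *Mcm3* had 70.1, 122 and 73.7 in the NT and 68.7, 98.1 and 82.7 in the KO libraries, and *Mcm6* had 64.5, 56.4 and 57.99 in the NT and 58.6, 65.7 and 65.7 in the KO libraries. These overlapped, with folds of 0.04, -0.06 and 0.09. *Mcm5* had 25.2, 31.97 and 28.5 in the NT and 25.3, 22.2 and 11.3 in the KO libraries, which overlapped, and *Mcm7* had 46.7, 45.1 and 36.4 in the NT and 23.3, 30.3 and 27.2 in the KO libraries, which did not. Their lower means did not pass (-0.59 ± 0.28, adjusted p = 0.249; -0.65 ± 0.24, adjusted p = 0.0855). *Pcna* had 52.3, 75.2 and 87.5 in the NT and 81.9, 64.7 and 65.7 in the KO libraries. *Tk1* had 12.1, 9.40 and 13.8 in the NT and 11.1, 10.1 and 10.2 in the KO libraries, and *Lmnb1* had 116, 94.04 and 123 in the NT and 103, 91.99 and 95.2 in the KO libraries. All these overlapped, with folds of 0.01 ± 0.17, -0.14 ± 0.39 and -0.19 ± 0.14.

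Other S phase genes were under the minimum, with few reads in either group. *Cdc6* had 2.80, 8.46 and 4.91 in the NT and 4.04, 5.05 and 3.40 in the KO libraries. *Cdc45* had 7.47, 3.76 and 4.91 in the NT and 7.08, 5.05 and 1.13 in the KO libraries, and *Tyms* had 4.67, 5.64 and 6.88 in the NT and 4.04, 5.05 and 0 in the KO libraries. Their groups overlapped. *Ccne1* had 4.67, 0 and 0.983 in the NT and 6.07, 1.011 and 1.13 in the KO libraries. *Ccne2* had 1.87, 1.88 and 3.93 in the NT and 1.011, 3.03 and 1.13 in the KO libraries, and *Rrm2* had 0, 0.940 and 0 in the NT and 0, 0 and 0 in the KO libraries. Of the 18 genes under the minimum, 14 overlapped. In the other 4 every KO library lay below every NT library. The share of such genes among all genes under the minimum was not counted. *Pole*, the catalytic subunit of polymerase ε, had 8.41, 8.46 and 10.8 in the NT and 0, 2.02 and 3.40 in the KO libraries, and *Cdt1* had 5.605, 4.70 and 4.91 in the NT and 1.011, 3.03 and 2.27 in the KO libraries. *Fen1* had 4.67, 7.52 and 4.91 in the NT and 4.04, 3.03 and 0 in the KO libraries, and *Chaf1b*, the partner of *Chaf1a* in the chromatin assembly factor, had 1.87, 10.3 and 3.93 in the NT and 1.011, 0 and 1.13 in the KO libraries. They held at most 11 reads in any library, were not tested at the minimum used, and did not pass in the fit without a minimum.

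The difference between the tissues in the *Ets1* effect was tested on the pair ratios of the 26 members tested in both. Their ratio was higher in the parenchyma in 21, with a median difference of 0.26 against -0.04 over 6520 genes, and none passed, while 2.10% of all genes did. At an unadjusted p below 0.05 there were 10 members of the 26, in either direction, against 13.8% of all genes. Of these 10, *Lig1* alone had the lower ratio in the parenchyma (-0.35 ± 0.17). The members nearest the threshold were *Lmnb1* (0.61 ± 0.17, adjusted p = 0.0537) and *Chaf1a* (0.93 ± 0.27, adjusted p = 0.067). In the alternatives 1 member passed with a pseudocount of 5, with a minimum of 50 and without replicate 2.

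Control cells were compared between tissues by reads scaled to a common library total (counts per 1000000 reads on genes, CPM), as a description without a test, since the tables were scaled separately and tissue and table cannot be told apart. Of the 41 members with a mean of at least 5 CPM over the 9 NT libraries, 40 had all 3 parenchyma libraries below all 3 spleen libraries of the *Ets1* experiment, against 28.0% of all genes. The remaining one, *Dut*, overlapped. Because 6 of the 9 libraries were from the spleen, a gene low in the parenchyma could pass the 5 CPM minimum through the spleen alone. Without that minimum, 43 of the 44 members had a lower mean in the parenchyma than in the spleen of the *Ets1* experiment. The median log2 ratio, parenchyma minus spleen, was -2.14 over the 41 members and -0.10 over all 7784 genes. With size factors over the 9 NT libraries, which moved the median of all genes to 0.03, the members had -2.02 and again 40 were apart. Against the NT libraries of the *Grk2* experiment, 37 were below and 1, *Rfc2*, was above (35.4% of all genes below), with a median of -1.51.

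**Figure D4:**
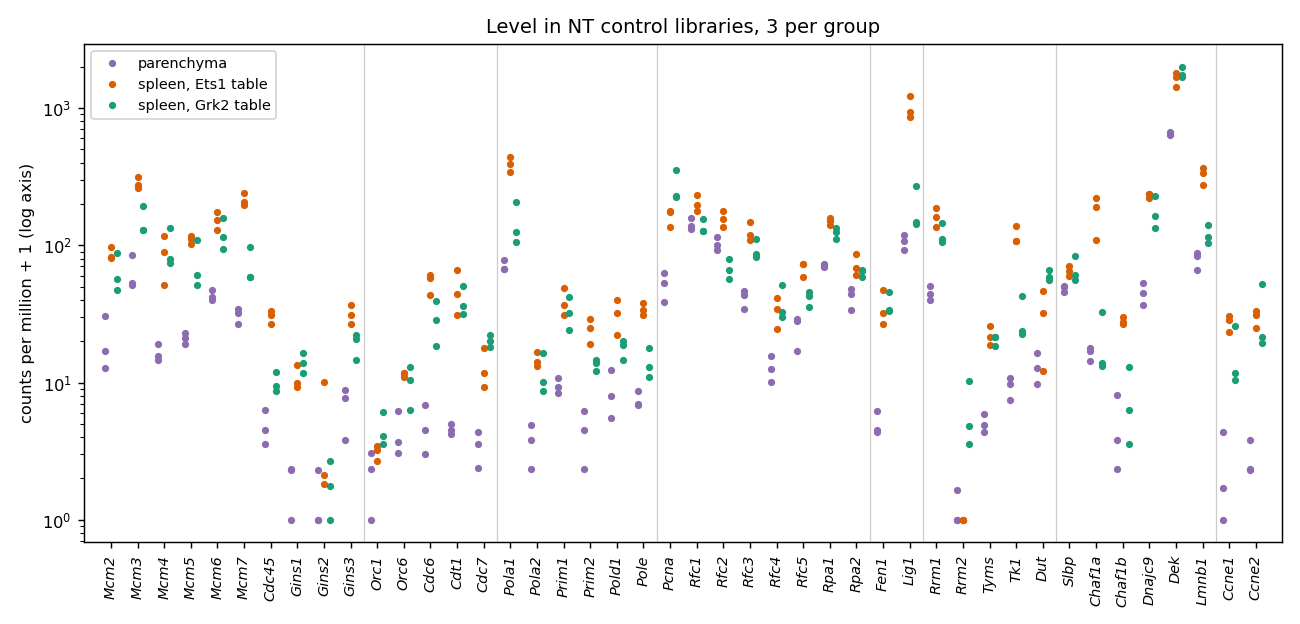
CPM plus 1 (log axis) of the 44 members in the 9 NT control libraries, with 3 points for the parenchyma and 3 for each set of spleen controls, ordered by role. The parenchyma points lie lowest for most members. *Rfc1*, *Rfc2* and *Slbp* are among the closest, and *Tk1*, *Ccne1*, *Ccne2* and *Cdc6* among the most distant from the spleen points of the *Ets1* experiment.

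Against the spleen of the *Ets1* experiment, *Tk1*, the cyclin E genes and *Cdc6* were among the furthest apart. *Ccne2* had 1.80 ± 0.848 CPM in the parenchyma, 28.8 ± 4.15 in the spleen of the *Ets1* experiment and 29.9 ± 18.2 in the spleen of the *Grk2* experiment. *Cdc6* had 3.77 ± 1.92 CPM in the parenchyma, 52.8 ± 9.14 in the spleen of the *Ets1* experiment and 27.7 ± 10.3 in the spleen of the *Grk2* experiment, and *Tk1* had 8.30 ± 1.67 CPM in the parenchyma, 117 ± 17.6 in the spleen of the *Ets1* experiment and 28.6 ± 11.3 in the spleen of the *Grk2* experiment. For each of them the highest parenchyma library was below the lowest spleen library. *Mcm2* had 19.2 ± 9.37 CPM in the parenchyma, 85.9 ± 9.15 in the spleen of the *Ets1* experiment and 62.9 ± 21.00 in the spleen of the *Grk2* experiment. *Mcm5* had 20.1 ± 1.97 CPM in the parenchyma, 109 ± 7.80 in the spleen of the *Ets1* experiment and 72.9 ± 31.3 in the spleen of the *Grk2* experiment, and *Pcna* had 50.4 ± 12.3 CPM in the parenchyma, 161 ± 23.3 in the spleen of the *Ets1* experiment and 268 ± 73.1 in the spleen of the *Grk2* experiment. The separation held here too, with *Pcna* higher in the *Grk2* than in the *Ets1* set of spleen controls. The median log2 ratio to the spleen of the *Ets1* experiment was -3.48 for the cyclins E, -3.03 for Okazaki fragment joining and -2.63 for origin licensing and firing. It was -2.38 for the helicase and -1.23 for clamp, clamp loader and RPA genes, the smallest of the role groups. Against the spleen of the *Grk2* experiment, the smallest was that of histone supply and chromatin (-0.64), and the clamp, clamp loader and RPA genes had -0.77. Of these clamp, clamp loader and RPA genes, *Rfc1* had 142 ± 14.3 CPM in the parenchyma, 201 ± 27.1 in the spleen of the *Ets1* experiment and 135 ± 16.8 in the spleen of the *Grk2* experiment, overlapping with the latter. *Slbp*, which binds histone mRNA, had 47.7 ± 2.80 CPM in the parenchyma, 64.5 ± 5.52 in the spleen of the *Ets1* experiment and 66.01 ± 15.1 in the spleen of the *Grk2* experiment.

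Passing the minimum of the tests rests on the same levels and is not separate support, and the count starts from genes that passed in the spleen. Of 41 members tested in the spleen *Ets1* experiment, 26 (63.4%) also passed in the parenchyma, against 93.4% of all genes. The parenchyma libraries held 1246779 to 1546206 reads each. The 10 T cell markers had a median log2 ratio of 0.23, with 5 above and 2 below the spleen libraries of the *Ets1* experiment. The myeloid markers summed to at most 13.7 in any spleen library, and the part of such cells in the levels was not tested.

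The 2 sets of spleen NT libraries, both of NT cells on day 3, differed in level. Of the 41 members 21 did not overlap, 18 higher and 3 lower in the *Ets1* experiment, and 58.1% of all genes did not overlap either. The median log2 ratio, *Ets1* minus *Grk2* experiment, was 0.42 over the members and 0.009 over all genes. Summed CPM of the members (mean ± SD) was 6478 ± 461 in the NT and 4714 ± 317 in the KO libraries of the spleen *Ets1* experiment. In the *Grk2* experiment it was 4445 ± 822 in the NT and 4708 ± 331 in the KO libraries. The part of this in the spleen comparisons was not tested. *Lig1* had 1003 ± 193 CPM in the *Ets1* and 186 ± 72.1 in the *Grk2* experiment, and *Chaf1a* had 173 ± 57.1 and 18.8 ± 10.9. *Pcna* went the other way, with 161 ± 23.3 and 268 ± 73.1. These sets were therefore not pooled.

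Other genes of the cell cycle were read from lists outside the 45. Of 46 further replication genes, 36 were tested in the spleen *Ets1* comparison, and 29 had a lower mean (median -0.26). At an unadjusted p below 0.05 there were 11 (30.6% against 14.1% of all genes). In 14 every KO library lay below every NT library (38.9% against 8.88%). At an adjusted p below 0.05, 1 fell (2.78%), while 1.20% of all genes fell. It was *Atad5*, which unloads the clamp (-0.72 ± 0.15, adjusted p = 0.00847), a call lost without replicate 1. None of the further replication genes was called in the parenchyma (22 tested, median -0.03, 1 at an unadjusted p below 0.05 against 16.9% of all genes) or with *Grk2*-KO (36 tested, median 0.06, 2 at an unadjusted p below 0.05 against 10.4%). The *Ets1* effect on *Atad5* differed from that of *Grk2*-KO (-0.95 ± 0.22, adjusted p = 0.0108), and that on *Nasp*, a histone chaperone gene, from the one in the parenchyma (0.62 ± 0.16, adjusted p = 0.0371, parenchyma minus spleen). Both differences were lost without the replicate block and without replicate 1, 2 or 3. That of *Atad5* was called in 8 of 12 alternatives and that of *Nasp*, also lost with thinned reads, in 7 of 12, the fit without a trend not counted.

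Genes of G2 and mitosis, 19 in a list chosen with earlier results of these data known, were called more widely. In the spleen with *Ets1*-KO 18 of 18 tested had a lower mean and 11 fell (median -0.58), while 1.20% of all genes fell. Among the 11 were *Bub1b* of the spindle checkpoint (-0.86 ± 0.19, adjusted p = 0.0155), the mitotic kinase gene *Cdk1* (-0.70 ± 0.18, adjusted p = 0.0339) and *Bub1* (-0.67). The proliferation marker *Mki67* had 1669, 1325 and 1819 in the NT and 949.7, 878 and 1195 in the KO libraries (-0.67 ± 0.11, adjusted p = 0.00208). *Top2a*, which untangles chromosomes, fell by a like amount (-0.63 ± 0.11, adjusted p = 0.00328). With *Grk2*-KO all 18 had a higher mean and 7 rose (median 0.36), while 0.931% of all genes rose. The 7 were led by *Ube2c* (0.55 ± 0.12, adjusted p = 0.00172), *Cdk1* (0.54) and *Nusap1* (0.50). *Top2a* rose (0.36 ± 0.07, adjusted p = 0.000222) and *Mki67* did not pass (0.25 ± 0.08, adjusted p = 0.0671). Calls in this list, too, rested on single replicates: without replicate 1 none of the 11 was left for *Ets1*, and without replicates 1, 2 and 3 the 7 for *Grk2* became 5, 0 and 2.

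In the parenchyma 10 of 11 tested G2 and mitosis genes had a lower mean with *Ets1*-KO and 7 fell (median -1.15), while 2.96% of all genes fell. The 26 replication members had a median of -0.16. *Mki67* had 210.2, 206 and 166 in the NT and 94.01, 104 and 65.7 in the KO libraries (-1.15 ± 0.13, adjusted p = 1.01e-15), and *Top2a* had 205, 237 and 143 in the NT and 66.7, 107 and 85.01 in the KO libraries (-1.16 ± 0.13, adjusted p = 7.64e-16). In both the groups were apart. The greatest falls were those of the kinetochore motor gene *Cenpe* (-1.65 ± 0.25, adjusted p = 4.75e-09), *Ube2c* (-1.64 ± 0.38, adjusted p = 0.000779) and the spindle gene *Tpx2* (-1.24). For *Cenpe* (-1.12 ± 0.20, adjusted p = 0.00108) and *Ube2c* (-1.24 ± 0.27, adjusted p = 0.00841) the effect was more negative in the parenchyma than in the spleen, and the difference between the tissues was not called for the other 9 tested. The difference in *Cenpe* was called in 10 of 11 such alternatives and lost without replicate 1, and that in *Ube2c* was called in 7 of 11 and lost without the block, with a pseudocount of 5 and without replicate 2 or 3.

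**Figure D5:**
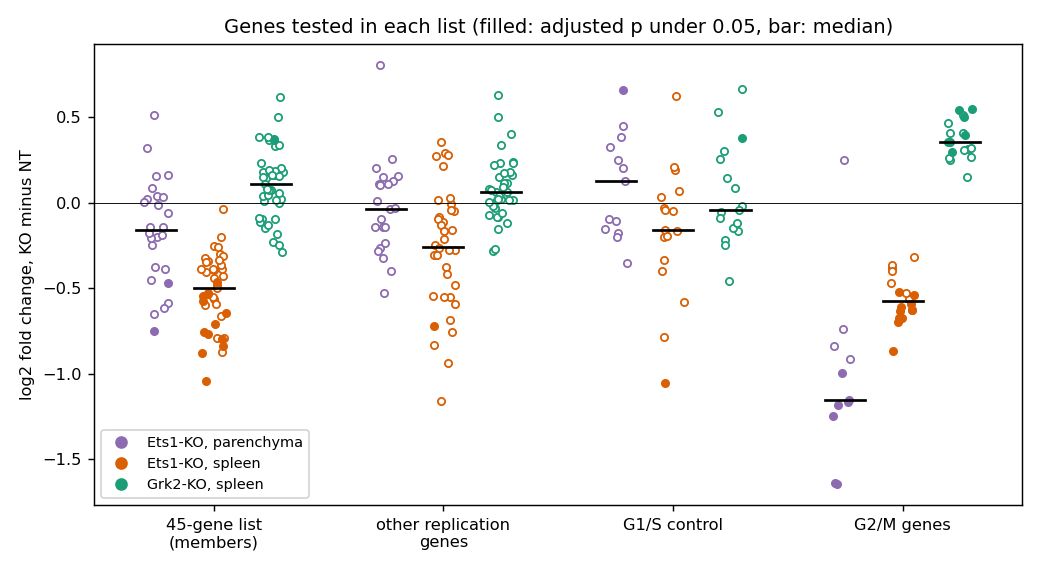
Log2 fold change (KO minus NT, y axis) of the genes tested among the 44 members, other replication genes, G1/S control genes and G2/M genes in the 3 comparisons; filled points have an adjusted p below 0.05 and bars are medians. The G2/M medians are -1.15, -0.58 and 0.36, and those of the members -0.16, -0.50 and 0.11.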

How the data were processed

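The deposited signal values were made by the authors from gene counts, scaled by a size factor per library (poscounts method of DESeq2 2.11.40.7) within each of 3 tables, after alignment to Rnor_6.0 with STAR 2.7.2b and counting with HTSeq 1.0.0, per the labels and methods. All positive values were multiples of 1 step per library, from which whole reads were recovered (100% within 0.01). In the parenchyma table, *Ets1*-KO replicates 1 and 2 had the same size factor with different counts. Whether counting used the strand is not given in the sources used here, so reads of overlapping genes may be shared.

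Values were tested as log2(normalized count + 1) with limma 3.58.1 (R 4.3.3; empirical Bayes with a trend, two-sided, Benjamini-Hochberg over all genes, threshold 0.05), for genes with a mean of at least 10, with the replicate number as a block. Differences between effects were tested on pair ratios, 3 against 3. Alternatives included edgeR 4.0.16 and DESeq2 1.42.0 on the recovered reads. The fits were tested on simulated data. Members and gene lists were chosen with earlier results of these data known. Library values are given for *Pcna*, *Mcm2*, *Mcm3*, *Mcm5*, *Mcm6*, *Tk1*, *Tyms*, *Rrm2*, *Cdc6*, *Cdc45*, *Ccne1*, *Ccne2*, *Lmnb1* and the called members with the largest changes (5 per direction); other members, *Mcm7*, *Pola1*, *Rrm1*, *Chaf1a*, *Dnajc9* and *Lig1* among them where outside that rule, were added after their values were seen. Of the lists, the 3 called genes with the largest change per direction were named, plus *Mki67*, *Top2a*, *Cdkn1a*, *Cdkn1b*, *Ccnd2* and *Ccnd3*. Overlap of libraries by CPM, the G2/M counts across alternatives and the second scaling of the spleen controls were added after seeing the data. The 8 columns of human values and the authors' fold changes and p-values were not used.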

Additional observations from a re-analysis of the deposited data

Results flagged for a closer look

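The effects of *Ets1*-KO and *Grk2*-KO in the spleen differed, by the test of the difference itself, in 7 members. All were lower for *Ets1*, as were 1.22% of all genes by the same test. The number of members called fell to 1 without the replicate block, to 1 to 3 with 1 replicate left out and to 0 without a trend. The log2 ratio for *Ets1* minus that for *Grk2* was -1.22 in *Tk1*, -0.88 in *Lmnb1*, -0.87 in *Mcm2*, -0.83 in *Dnajc9*, -0.78 in *Rrm1*, -0.78 in *Mcm7* and -0.76 in *Pola1*. In the *Ets1* experiment the KO library was the lower one in 3 of 3 pairs for each of these genes, the same pairs that entered the test. The NT libraries of the 2 experiments differed in level for *Tk1*, *Lmnb1*, *Mcm7* and *Pola1*, and the part of that difference in the result was not tested. No group had more than 3 libraries, so single libraries were not tested as outliers.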

How the results depend on the processing

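Same-numbered KO and NT libraries deviated together only weakly (correlations of -0.003 to 0.175), so the block rests on the co-transfer and not on the data. Without the replicate block, members called numbered 7 for *Ets1* in the spleen, 0 for *Grk2* and 1 for their difference, and genes called numbered 200 (parenchyma), 71 and 19 in the 3 comparisons and 47 (tissues) and 43 (*Ets1* against *Grk2*) in the differences. Without a trend 0 members were called in any comparison, and 3, 0, 0, 2 and 0 genes.

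In the parenchyma, the spleen *Ets1* and the spleen *Grk2* comparison, DESeq2 called 90, 48 and 9 genes with 5 members for *Ets1* and 0 for *Grk2* in the spleen, and edgeR called 238 genes for *Ets1* in the spleen. With no filter on low values, 212 genes were called in the parenchyma and 242 for *Ets1* in the spleen, and the median tissue difference was 0.35. With a minimum of 50, 60 genes were called for *Grk2*, and the tissue difference had 1 member called and a median of 0.19; with a pseudocount of 5 it also had 1.

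With 1 replicate left out, genes called ranged 165 to 278 (parenchyma), 3 to 241 (*Ets1*, spleen), 9 to 48 (*Grk2*), 27 to 98 (tissues) and 24 to 49 (*Ets1* against *Grk2*). Members called ranged 0 to 12 for *Ets1* in the spleen, 0 in each case for *Grk2*, 0 to 1 for the tissues and 1 to 3 for *Ets1* against *Grk2*. Member medians ranged -0.26 to -0.12 in the parenchyma and -0.53 to -0.45 for *Ets1* in the spleen. The latter was -0.43 with a pseudocount of 5, -0.47 with quantile normalization, -0.47 with upper quartile scaling, -0.47 with TMM and -0.53 with thinned reads. The control level against the spleen NT libraries of the *Grk2* experiment had a median of -1.51. The cause of these changes was not tested.

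Members that had not passed changed sign in some alternatives. In the parenchyma *Mcm2* had -0.39 to 0.55 with 1 replicate left out and -0.018 with edgeR, *Mcm3* -0.17 to 0.069 and *Pcna* -0.31 to 0.21. With *Grk2*-KO, *Mcm3* had -0.0068 with quantile normalization, -0.018 with upper quartile scaling, -0.011 with TMM, -0.028 with edgeR, -0.023 with DESeq2 and -0.043 to 0.058 with 1 replicate left out; such ranges were -0.22 to 0.15 for *Mcm5*, -0.11 to 0.17 for *Mcm6*, -0.18 to 0.72 for *Ccne1* and -0.086 to 0.48 for *Ccne2*. In the tissue difference *Mcm5* had -0.061 with thinned reads and -0.13 to 0.22 with 1 replicate left out. No called member changed sign.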

Other observations

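Genes that control the step from G1 to S, 24 in a list of their own, were called singly. In the parenchyma the cyclin gene *Ccnd2* had 99.01, 77.1 and 85.5 in the NT and 134, 148 and 131 in the KO libraries and rose (0.66 ± 0.14, adjusted p = 0.000185), and it was the 1 gene called of 13 tested. In the spleen with *Ets1*-KO the retinoblastoma relative *Rbl1* had 32.8, 43.03 and 73.6 in the NT and 21.9, 19.8 and 24.98 in the KO libraries and fell (-1.05 ± 0.26, adjusted p = 0.0307), the 1 called of 17. With *Grk2*-KO the cyclin gene *Ccnd3* had 363, 417 and 376 in the NT and 571, 489 and 450.2 in the KO libraries and rose (0.38 ± 0.08, adjusted p = 0.00172), again the 1 called of 17. *Cdkn2c*, an inhibitor of the cyclin D kinases, differed between the *Ets1* and *Grk2* effects in the spleen (-1.25 ± 0.33, adjusted p = 0.0343), with folds of -0.58 and 0.67, a call that held in 7 of 11 alternatives and was lost without the block and without replicate 1, 2 or 3. Among the alternatives other than the fit without a trend, the call held in 12 of 14 for *Ccnd2*, 9 of 12 for *Rbl1* and 10 of 14 for *Ccnd3*, and those of *Rbl1* and *Ccnd3* were lost without replicate 1. In each of *Ccnd2*, *Rbl1* and *Ccnd3* the KO and NT libraries did not overlap.

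The cyclin kinase inhibitor genes *Cdkn1a* and *Cdkn1b* did not pass in any comparison of KO with NT. *Cdkn1a* had folds of 0.38 ± 0.17 in the parenchyma, 0.19 ± 0.21 in the spleen with *Ets1*-KO and 0.09 ± 0.17 with *Grk2*-KO, and *Cdkn1b* had -0.18 ± 0.10, -0.03 ± 0.16 and -0.04 ± 0.08.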
